A study of Homo sapiens with 6 samples.

Results

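The G1 phase machinery of NB4 cells was examined through 10 genes: the CDK inhibitors CDKN1A, CDKN1B, CDKN2C and CDKN2D, the D-type cyclins CCND2 and CCND3, the kinases CDK4 and CDK6, and their targets RB1 and E2F1. They were taken by gene symbol from the 18625 genes of the deposited RNA-seq table, and all 10 were found. CDKN2D was included because it is a gene of the heatmap that the study drew from differences between these same libraries, so its difference between the groups is a description without a test. The other 9 were listed for their place in the pathway, with earlier results of these data known.

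NB4 is a human acute promyelocytic leukemia cell line carrying the PML-RARA fusion, which the DMSO and the Tan I libraries share. The cells received DMSO, the solvent, or Tanshinone I (Tan I), a lipid-soluble compound of Salvia miltiorrhiza, at 10 μM, in both cases for 3 days, and each group has 3 libraries of 1 cell line. The labels do not say whether the libraries came from separate cultures, so p-values measure the spread between these libraries, which may be technical. The study treated the cells to see which genes respond to a compound that it examined as an inhibitor of EZH2, the H3K27 methyltransferase.

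In the textbook scheme, D-type cyclins switch on CDK4 and CDK6, which phosphorylate the retinoblastoma protein encoded by RB1. Phosphorylated RB1 releases E2F factors such as E2F1, which then drive genes of DNA synthesis, among them E2F1 itself. The INK4 inhibitors, p18 from CDKN2C and p19 from CDKN2D, bind CDK4 and CDK6 alone, whereas the CIP/KIP inhibitors, p21 from CDKN1A and p27 from CDKN1B, also bind CDK2 complexes. In myeloid cells, leaving the cycle goes together with terminal differentiation, and CDK inhibitors are known to be induced in that course.

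CDKN2D and E2F1 carry the descriptions that follow, the first as the member with the widest difference between the groups and the second as both a member and the regulator of a target list, so their promoter windows are shown as RefSeq gives them on GRCh38.p14, from 250 bases before to 50 bases after the transcription start, written 5′ to 3′ on the gene's strand. Capitals mark the GC box GGGCGG, on either strand, in CDKN2D (chr19:10568930-10569229, minus strand) and E2F words in E2F1 (chr20:33686336-33686635, minus strand).
CDKN2D: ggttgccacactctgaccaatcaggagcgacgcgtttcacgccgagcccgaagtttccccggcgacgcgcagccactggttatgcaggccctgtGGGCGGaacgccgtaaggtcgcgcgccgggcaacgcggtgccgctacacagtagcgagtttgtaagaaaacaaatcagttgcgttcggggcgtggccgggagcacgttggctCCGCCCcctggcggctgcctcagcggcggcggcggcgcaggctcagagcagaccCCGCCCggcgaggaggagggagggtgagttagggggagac
E2F1: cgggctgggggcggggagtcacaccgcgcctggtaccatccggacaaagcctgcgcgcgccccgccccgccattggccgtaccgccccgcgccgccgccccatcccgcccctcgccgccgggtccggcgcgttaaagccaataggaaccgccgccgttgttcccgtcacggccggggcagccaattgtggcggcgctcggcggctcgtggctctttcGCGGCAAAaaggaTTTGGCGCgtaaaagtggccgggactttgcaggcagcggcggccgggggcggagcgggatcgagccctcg
The E2F words searched on both strands were TTTGGCGC, TTTCGCGC, TTTCCCGC and TTTGCCGC, which do not contain the GC box. The E2F1 window held 2 of them, beginning 33 and 20 bases before the start. None was found in the other windows of the 9 members with an entry (14 windows in all, some genes having several starts, and CCND2 none), and 3.3% of all 34796 distinct windows of this length held one. GC boxes were found 3 times in the CDKN2D window, as in that of CDK4, while the E2F1 window held 6 and the RB1 window 0. At least 1 was found in 44.9% of all windows. These matches describe letters only. The windows follow the starts in RefSeq, and many lie inside the gene as GENCODE draws it, among them those of RB1, CDK4, CDKN1A and CDKN1B.

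The libraries held between 21502760 and 31679138 reads on the listed genes, and the 10 members had from 336 reads (CDKN2C in DMSO replicate 1) to 6183 reads (CCND2 in DMSO replicate 3). Values are normalized counts, that is, reads divided by one size factor per library. Promyelocyte markers were abundant, with the summed normalized count of the 5 analysed (MPO, PRTN3, AZU1, CTSG and CD33) between 70959 and 76923 in DMSO and between 41825 and 50123 in Tan I, while ELANE was not analysed here. Those sums did not overlap, and most of each was MPO, with 60389 to 64107 in DMSO and 33279 to 39450 in Tan I. CTSG did not overlap either and was lower in Tan I, whereas PRTN3, AZU1 and CD33 overlapped, CD33 with a log2 fold change of 0.07. The part of these markers in the results below was not tested. In bulk RNA, fewer cells of a type and less RNA per cell cannot be told apart. Markers of other lineages were not at 0, with sums from 257 to 527 for the T cell genes CD3D and CD3E. Most of these sums was CD3D, with 245 to 515 normalized counts, not far below the member CDKN1A with 353 to 573. The erythroid gene ALAS2 was low, with values from 10.7 to 51.3. The first principal component (PC1) of all genes tested held 70.8% of the variance between libraries, and its scores did not follow the treatment. The DMSO libraries scored -48.0 (replicate 1), 41.1 (replicate 2) and -26.7 (replicate 3), and the Tan I libraries -46.8 (replicate 1), 8.65 (replicate 2) and 71.6 (replicate 3).

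The difference between Tan I and DMSO was fitted with limma on log2(normalized count + 1) in the 16887 genes whose mean was 10 or more, all 10 members among them. A gene counted as called where the unadjusted p was 0.05 or less and the log2 fold change was 0.25 or more in size. By this rule 2.42% of all genes tested were called, 223 higher and 185 lower in Tan I, and 1 of the 10 members, CDKN2D, from which nothing is read since the contrast chose it. With all library totals made equal, the split over all genes was 189 higher and 248 lower. After Benjamini-Hochberg adjustment over all genes, limma called 0 members and 0 genes (0%, with 410 genes at an unadjusted p of 0.05 or less), and none of the other 9 members had an adjusted p below 0.999. On the recovered reads, edgeR also called 1 member without adjustment and 0 with it, and DESeq2 likewise 1 and 0. The count of 1 member fell to 0 without DMSO replicate 1, without DMSO replicate 3, without Tan I replicate 2 and without Tan I replicate 3. Over the 10 members the median log2 fold change was -0.02, with 4 positive and 6 negative, beside a median of -0.00 over all genes tested.

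**Figure D1:**
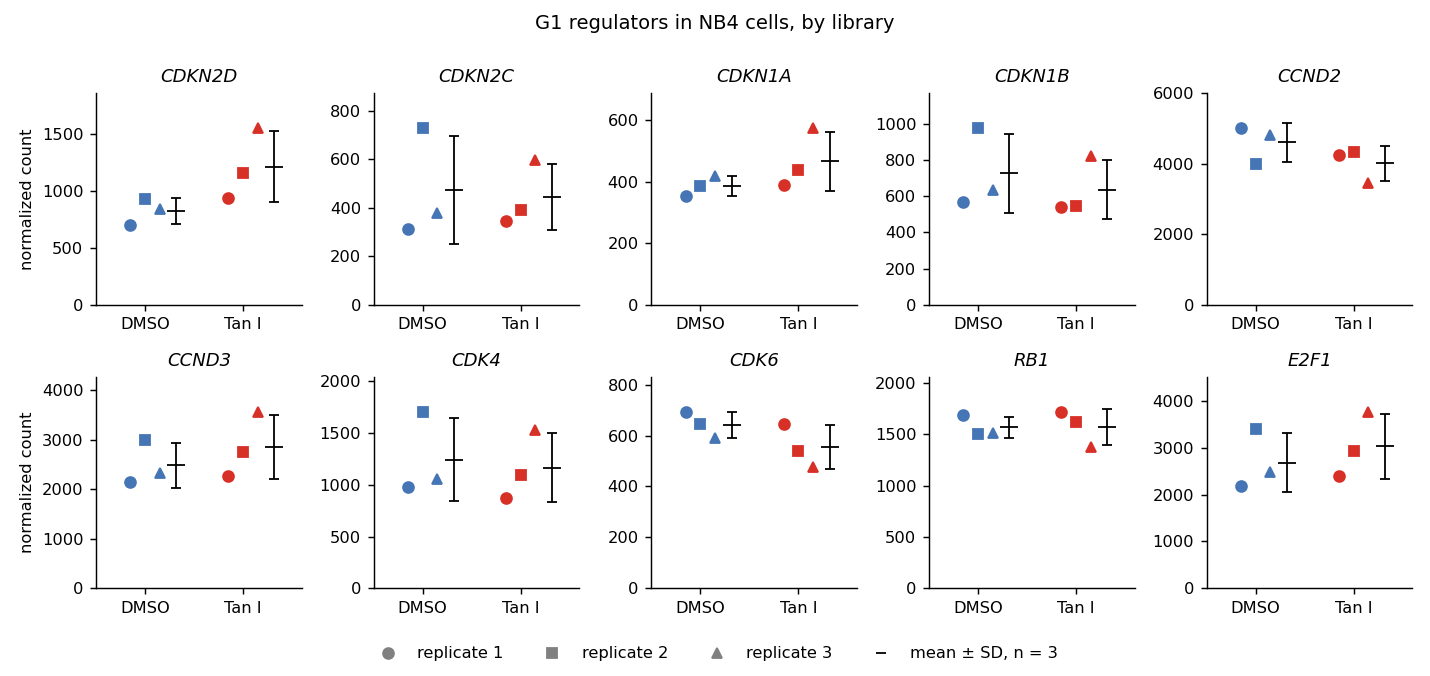
Normalized counts of each G1 gene (vertical axis, starting at 0) in the 3 DMSO and the 3 Tan I libraries; symbols mark the replicate number, and black bars give the mean ± SD (n = 3). CDKN2D is the one gene whose groups do not overlap, by 1.10 normalized counts, and in most panels DMSO replicate 2 and Tan I replicate 3 are the highest or the lowest of their groups together.

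Of the INK4 inhibitors, CDKN2D (ENSG00000129355, GRCh38 chr19:10566460-10569059, minus strand) had 698, 933 and 841 normalized counts in DMSO replicates 1, 2 and 3 and 934, 1158 and 1550 in Tan I replicates 1, 2 and 3. The lowest Tan I library thus lay 1.10 normalized counts above the highest DMSO library, while the highest Tan I library stood well above all others. The group means were 824 ± 118 and 1214 ± 311 (SD, n = 3 each), 1.47 times as much in Tan I, with a log2 fold change of 0.54 and a standard error of 0.21. The libraries nearest to each other had 969 reads (DMSO replicate 2) and 956 reads (Tan I replicate 1), so counting error alone exceeds the gap between the groups. Without Tan I replicate 3 the log2 fold change was 0.35, and without Tan I replicate 1 it was 0.71. CDKN2D was the 1 member of 10 whose groups did not overlap, beside 7.89% of all genes tested, 3.92% with Tan I higher and 3.97% with Tan I lower. Its canonical transcript has 2 exons.

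CDKN2C (ENSG00000123080, chr1:50960745-50974634, plus strand), the other INK4 gene measured, had 313, 727 and 378 normalized counts in DMSO and 347, 389 and 597 in Tan I. Its highest value was in DMSO replicate 2 and its next highest in Tan I replicate 3, and the groups overlapped over most of their range. Tan I differed from DMSO by -0.03 on the log2 scale, with the widest 95% confidence interval among the members tested, -0.83 to 0.77. It turned positive without DMSO replicate 2, at 0.33, without Tan I replicate 1, at 0.13, and without Tan I replicate 2, at 0.04. The values of CDKN2D and CDKN2C can also be set against each other within a library, where the size factor cancels. The log2 ratio of CDKN2D to CDKN2C counts was 1.16, 0.36 and 1.15 in DMSO and 1.43, 1.57 and 1.38 in Tan I, so that all Tan I libraries were above all DMSO libraries. Means and SDs of the ratio were 0.89 ± 0.46 for DMSO and 1.46 ± 0.10 for Tan I, a difference of 0.57 that contains the gene chosen from this contrast and was not tested. Without DMSO replicate 2 that difference was 0.31.

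CDKN1A (ENSG00000124762, chr6:36676460-36687337, plus strand), which encodes p21 and is a well-known target of p53, had 353, 386 and 419 normalized counts in DMSO and 389, 438 and 573 in Tan I. All Tan I libraries were above the lowest pair of DMSO libraries, but Tan I replicate 1 lay below DMSO replicate 3. Tan I exceeded DMSO by 0.26 on the log2 scale (95% confidence interval -0.15 to 0.66, adjusted p = 0.999 from limma), and by 0.10 without Tan I replicate 3. CDKN1B (ENSG00000111276, chr12:12685498-12722369, plus strand), which encodes p27, had 569, 976 and 637 normalized counts in DMSO and 539, 546 and 824 in Tan I. DMSO replicate 2 and Tan I replicate 3 stood above the rest, and the groups overlapped. The log2 fold change of -0.18 (95% confidence interval -0.77 to 0.41, adjusted p = 0.999 from limma) turned to 0.05 without DMSO replicate 2. Within libraries, the log2 ratio of CDKN1A to CDKN1B was -0.69, -1.34 and -0.60 in DMSO and -0.47, -0.32 and -0.52 in Tan I. This ratio, too, did not overlap between the groups and was higher in Tan I, by 0.44 on average and by 0.21 without DMSO replicate 2 (an exact two-sided permutation test of 3 libraries against 3 cannot go below p = 0.1). The share of all gene pairs whose ratios do not overlap was not computed, so nothing is read from this separation. CDKN1B overlaps GPR19 on the opposite strand, which had a mean of 138 normalized counts, and the strand setting of the counting is not given in the sources used here.

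The D-type cyclins had log2 fold changes of opposite sign, and neither passed the test. CCND2 (ENSG00000118971, chr12:4269771-4305353, plus strand) had 5004, 3988 and 4831 normalized counts in DMSO and 4254, 4333 and 3450 in Tan I, a log2 fold change of -0.20 (95% confidence interval -0.54 to 0.14, adjusted p = 0.999 from limma). CCND3 (ENSG00000112576, chr6:41934934-42050357, minus strand) had 2136, 2996 and 2317 in DMSO and 2273, 2742 and 3553 in Tan I, a log2 fold change of 0.19 (95% confidence interval -0.27 to 0.66, adjusted p = 0.999 from limma). For CCND2 the lowest library was Tan I replicate 3 and the lowest DMSO library was replicate 2, and for CCND3 these same libraries were the highest of their groups. Without Tan I replicate 3 the log2 fold change was -0.0949 for CCND2 and 0.0233 for CCND3. The log2 ratio of CCND2 to CCND3 counts accordingly ran from 0.41 to 1.23 in DMSO and from -0.04 to 0.90 in Tan I, with overlapping groups, and its mean difference of -0.39 was -0.12 without Tan I replicate 3.

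Of the kinases, CDK4 (ENSG00000135446, chr12:57747727-57756013, minus strand) had 980, 1703 and 1053 normalized counts in DMSO and 871, 1095 and 1530 in Tan I, with a log2 fold change of -0.09 (95% confidence interval -0.72 to 0.55, adjusted p = 0.999 from limma). DMSO replicate 2 and Tan I replicate 3 were again the highest, and the sign turned without DMSO replicate 2 (0.16) and without Tan I replicate 1 (0.10). CDK6 (ENSG00000105810, chr7:92604921-92836573, minus strand) had 692, 644 and 589 normalized counts in DMSO and 646, 540 and 476 in Tan I, with a log2 fold change of -0.22 (95% confidence interval -0.57 to 0.13, adjusted p = 0.999 from limma). The lowest pair of libraries for CDK6 came from Tan I, but Tan I replicate 1 lay among the DMSO libraries, and without Tan I replicate 3 the log2 fold change was -0.12. The log2 ratio of CDK6 to CDK4 ran from -1.40 to -0.50 in DMSO and from -1.68 to -0.43 in Tan I, and its mean difference of -0.13 turned to 0.07 without DMSO replicate 1 and to 0.19 without Tan I replicate 3. CDK4 overlaps TSPAN31 and MARCHF9 on the opposite strand, with means of 254 and 446 normalized counts.

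RB1 (ENSG00000139687, chr13:48303744-48599436, plus strand) was the member with the smallest difference and the narrowest interval. It had 1685, 1502 and 1517 normalized counts in DMSO and 1716, 1621 and 1379 in Tan I, and a log2 fold change of -0.00 (95% confidence interval -0.29 to 0.29). LPAR6 and RCBTB2, with means of 315 and 839 normalized counts, overlap RB1 on the opposite strand. E2F1 (ENSG00000101412, chr20:33675477-33686385, minus strand) had 2174, 3393 and 2480 normalized counts in DMSO and 2393, 2927 and 3757 in Tan I, with a log2 fold change of 0.17 (95% confidence interval -0.34 to 0.69, adjusted p = 0.999 from limma). Its highest libraries were Tan I replicate 3 and DMSO replicate 2, and the groups overlapped. The log2 fold change was 0.00626 without Tan I replicate 3 and 0.0359 without DMSO replicate 1.

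**Figure D2:**
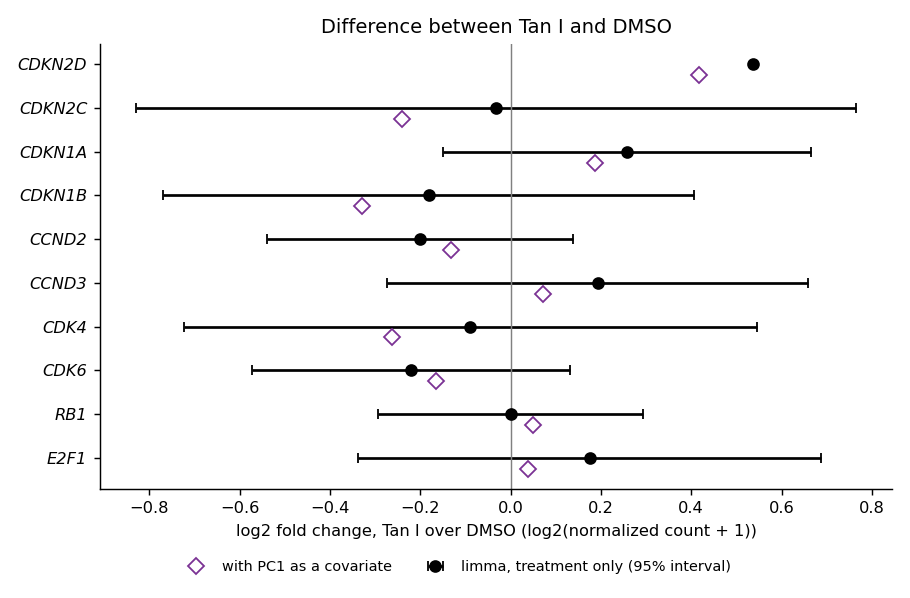
Difference between Tan I and DMSO on the log2 scale (horizontal axis) for each G1 gene, with the 95% confidence interval from limma (black) and the value with PC1 as a covariate (open diamonds). No interval is drawn for CDKN2D, which was chosen from this contrast, and each of the other 9 intervals holds 0.

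Levels of different genes were compared per kilobase of the canonical GENCODE transcript. In DMSO, CCND3 was highest with 1226 ± 224 normalized counts per kb, followed by E2F1 with 997 ± 236, CCND2 with 710 ± 83.7, CDK4 with 668 ± 213, CDKN2D with 578 ± 83.0, CDKN2C with 475 ± 224, RB1 with 329 ± 21.3, CDKN1B with 302 ± 90.4, CDKN1A with 182 ± 15.5 and CDK6 with 55.0 ± 4.41 (SD, n = 3 each). The ranges of neighbours in this order overlapped, except between E2F1 and CCND2, between CDKN1B and CDKN1A, and between CDKN1A and CDK6. Per length, CCND3 thus stood above CCND2 in every library, although CCND2 had more reads in each but Tan I replicate 3, and CDK4 stood above CDK6 in every library. In Tan I, CDKN2D and CCND2 traded ranks, CDKN2D standing at rank 3 with 852 ± 219 normalized counts per kb and CCND2 at rank 5 with 618. All other means kept their rank, so that CDK4, with 625 in Tan I, stood above CCND2 there and below it in DMSO. Where the cells use other isoforms than the canonical one, these levels shift. CCND2 also overlaps a protein-coding gene on the same strand (ENSG00000285901, chr12:4273762-4405490), which was not analysed here. The part of this overlap in the level of CCND2 was not tested.

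**Figure D3:**
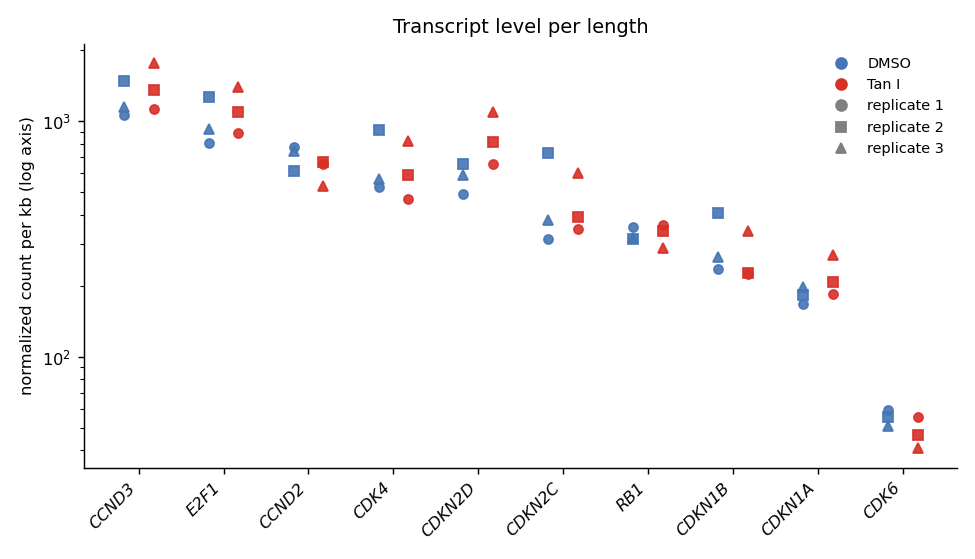
Normalized counts per kilobase of canonical transcript (log axis) for the 10 G1 genes, ordered by their DMSO mean, with each library as a point colored by treatment. CCND3 and E2F1 are at the top and CDK6, at 55.0 in DMSO and 47.5 in Tan I on average, at the bottom.

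Beyond the 10 genes, 28 other G1/S regulators were listed from general knowledge, of which 24 were tested. None was called with limma, with or without adjustment (0 of 24, beside 2.42% of all genes), and edgeR and DESeq2 without adjustment called 0 as well; without Tan I replicate 1 limma called 2. Their log2 fold changes ran from -0.24 to 0.32 with a median of 0.04. CCNE1, which encodes the E-type cyclin that activates CDK2, had 371, 427 and 395 normalized counts in DMSO and 411, 504 and 559 in Tan I. All but the lowest Tan I library exceeded the DMSO values, for a log2 fold change of 0.29 (95% confidence interval -0.07 to 0.65, adjusted p = 0.999 from limma). CCND1, CCNE2 and CDK2 had log2 fold changes of 0.02, 0.03 and 0.11. CCND1, the remaining D-type cyclin, had 200, 285 and 191 normalized counts in DMSO and 199, 228 and 249 in Tan I, with overlapping groups. The 1 gene of this list whose groups did not overlap, E2F4, named after its values were seen, had a log2 fold change of 0.11, and 7.89% of all genes tested had such groups. CDKN1C, CDKN2A, CDKN2B and E2F7 were not analysed here.

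Genes known as E2F targets were tested for all 25 listed. Of these, 2 were called without adjustment, both higher in Tan I (background 1.32%), 0 were called lower and 0 with adjustment, and the median log2 fold change was 0.06. RRM2, a subunit of ribonucleotide reductase, had 3619, 4281 and 3830 normalized counts in DMSO and 4552, 4844 and 6871 in Tan I, with a log2 fold change of 0.45 ± 0.18 (SE, adjusted p = 0.999 from limma). FBXO5, which encodes the inhibitor EMI1 of the anaphase-promoting complex, had 1363, 1277 and 1207 in DMSO and 1515, 1543 and 1660 in Tan I, with a log2 fold change of 0.29 ± 0.11 (SE, adjusted p = 0.999 from limma). For both genes every Tan I library lay above every DMSO library. MCM2, part of the replicative helicase, had the most negative value of the list, -0.23, with 5011, 5207 and 4923 normalized counts in DMSO and 4703, 4022 and 4237 in Tan I. It was the one E2F target with all Tan I libraries below DMSO, while 4 (FBXO5, RRM2, CCNA2 and CDK1, the latter pair named after their values were seen) had all Tan I libraries above, beside 3.97% and 3.92% of all genes tested. The count of 2 was 1 without DMSO replicate 1, DMSO replicate 2 or Tan I replicate 2, it was 0 without DMSO replicate 3 or Tan I replicate 3, and it was 4 without Tan I replicate 1.

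Because CDKN1A answers to p53, 23 other p53 targets were listed, of which 21 were tested. Here 1 was called without adjustment, higher in Tan I (background 1.32%), and 0 with it, and the median log2 fold change was -0.02, with 9 positive and 12 negative. The gene called was BTG2, an antiproliferative gene, with 131, 135 and 152 normalized counts in DMSO and 162, 208 and 223 in Tan I, a log2 fold change of 0.49 ± 0.18 (SE, adjusted p = 0.999 from limma). The most positive and the most negative values belonged to PLK3, a stress-responsive kinase, at 0.53, and TIGAR, a fructose bisphosphatase, at -0.54. PLK3 had 75.5, 96.3 and 79.7 normalized counts in DMSO and 105, 104 and 160 in Tan I, so that its groups did not overlap, and TIGAR had 69.0, 44.3 and 48.4 against 48.9, 35.8 and 26.7, which overlapped. Groups did not overlap for 3 genes of the list, beside 7.89% of all genes tested: BTG2 and PLK3 were higher in Tan I, and FAS, a death receptor gene named after its values were seen, was lower, with 185, 184 and 209 against 171, 173 and 181 normalized counts. The count of 1 was 0 without DMSO replicate 1, Tan I replicate 2 or Tan I replicate 3, and 6 without Tan I replicate 1, a fit that called 1485 of 16740 genes.

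**Figure D4:**
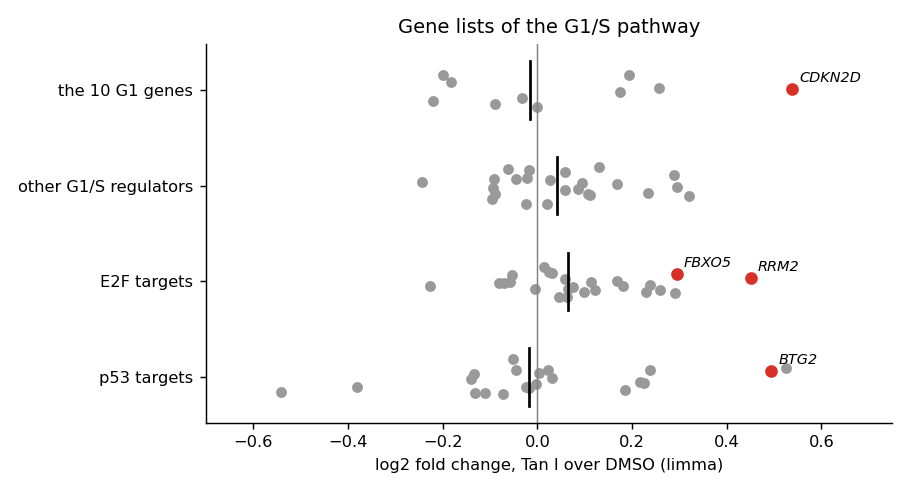
Log2 difference between Tan I and DMSO (horizontal axis, limma) for each tested gene of the 4 lists, spread vertically at random within a list; red points were called without adjustment and black lines mark the list medians, from -0.02 to 0.06. CDKN2D, FBXO5, RRM2 and BTG2 are the genes called, and none passes adjustment over all genes.

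The members varied among themselves along PC1, which ranks the libraries across both groups. In a fit with treatment and the PC1 score, 7 members had a positive and 3 a negative slope on the score, none of them tested. Over the whole range of scores the fitted log2 change was 1.12 for CDKN2C, 0.93 for CDK4, 0.79 for CDKN1B, 0.73 for E2F1, 0.65 for CCND3, 0.64 for CDKN2D and 0.38 for CDKN1A. It was -0.37 for CCND2, -0.29 for CDK6 and -0.27 for RB1. The canonical transcripts of the 7 with a positive slope have 995 to 2690 bases, and those of the 3 with a negative slope have 4768 to 11663 bases. Across 16825 genes, which are not independent replicates and share these libraries, the fitted change and transcript length had a Spearman correlation of -0.24, and in 4 bins of about equal size, from shortest to longest, the median fitted change was 0.25, 0.30, 0.07 and -0.32. The bin with the highest median, from 1354 to 2588 bases, holds 5 of the 7 members with a positive slope, and the bin of 4456 bases or more holds the 3 with a negative slope. With the GC content of the canonical transcript (its percentage of G and C bases), the fitted change had a Spearman correlation of 0.13 across the same genes. The part of transcript length or GC content in the differences between libraries was not tested.

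**Figure D5:**
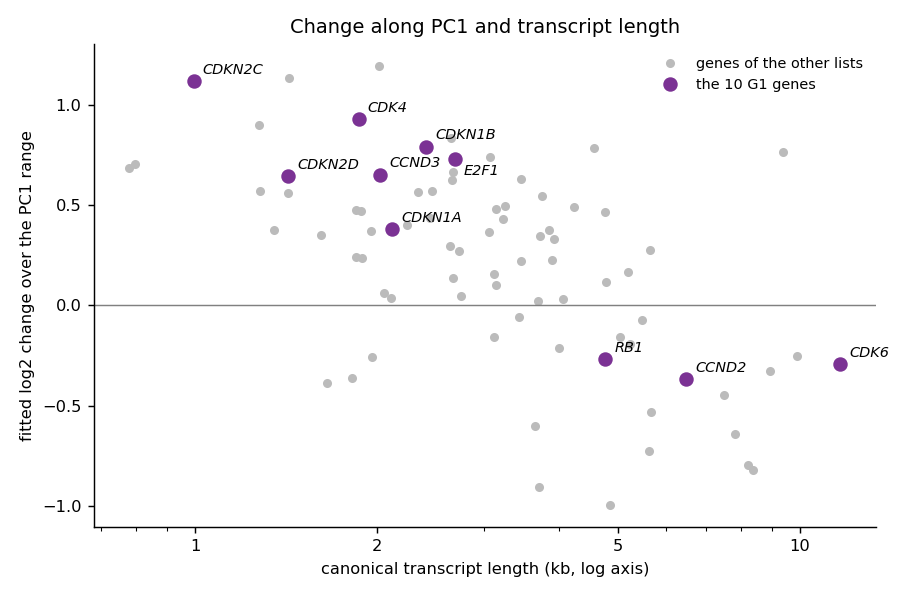
Fitted log2 change over the range of PC1 scores (vertical axis) against canonical transcript length (kb, log axis) for the 10 G1 genes (purple) and the genes of the other lists (grey). RB1, CCND2 and CDK6, the longest of the 10, lie below 0, and the other 7 lie above.

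With the PC1 score as a covariate, limma called CDK4 and CDKN1B among the other 9 members without adjustment, beside 8.86% of all genes. Both were lower in Tan I at equal score. Neither passed adjustment, which 1.15% of all genes did. The log2 fold change of CDKN2D became 0.42, from which nothing is read since the contrast chose it. The log2 fold change of CDK4 was -0.26 (unadjusted p = 0.00249, adjusted p = 0.101 from limma), and that of CDKN1B was -0.33 (unadjusted p = 0.00443, adjusted p = 0.132 from limma). In the fit without the covariate these values were -0.09 and -0.18. Among the E2F targets, RRM2 passed adjustment in the fit with PC1, where its log2 fold change was 0.36 (adjusted p = 0.0279 from limma). PC1 was computed from the same values that were tested, with the treatment difference included. The fit takes this score as known, so its p-values, among them those of RRM2, CDK4 and CDKN1B, may be too small.

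The genes whose values over the 6 libraries were most like those of CDKN2D, by the root mean square difference of centred log2 values among genes with a mean of at least 50, were FTL (ferritin light chain, 0.0477), TFPT (0.0603) and RASL10A (0.0685). FTL had 34388, 48712 and 41950 normalized counts in DMSO and 45089, 57877 and 82245 in Tan I. As for CDKN2D, its DMSO replicate 2 was the highest of the DMSO libraries and its Tan I replicate 3 the highest of all, but the groups of FTL overlapped. Nothing is read from the shared order, since FTL, TFPT and RASL10A were picked for their likeness to CDKN2D. TFPT had 414, 606 and 511 against 540, 719 and 894, and RASL10A 45.7, 71.3 and 57.8 against 66.5, 78.0 and 111, both with overlapping groups.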

How the data were processed

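RNA-seq was performed on 3 DMSO and 3 Tan I libraries of NB4 cells. According to the paper and the submitters' processing notes, STAR was used for alignment to GRCh38, multi-mapping reads were dropped, featureCounts gave counts per gene, and DESeq2 was applied; versions, annotation release and strand setting are not given in the sources used here. The authors deposited signal values, namely counts of reads scaled with 1 size factor for each library; the table also holds their own comparison (mean, log2 fold change, its error, statistic and p-values), which was not used. In each library 100% of the values were whole multiples of the value of 1 read, and reads were recovered from these steps. The tolerance was 0.001 reads and grew in proportion to the count for genes with high counts. The closest libraries, DMSO replicate 1 and Tan I replicate 1, differed with a chi-square of 6.37 per gene, so none was counted as a copy.

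Genes with a mean of at least 10 were tested with limma 3.58.1 in R 4.3.3 (trended eBayes) on log2(normalized count + 1), which understates fold changes of low genes, with Benjamini-Hochberg adjustment over 16887 genes. The fit was tested on simulated reads drawn for each gene separately. They hold no component shared between genes like PC1, so that test does not bear on PC1. Alternatives were pseudocounts of 0.1 and 10, no filter, a mean of at least 50, rescaled totals, quantile normalization, eBayes without the trend, PC1 as a covariate, edgeR 4.0.16 and DESeq2 1.42.0 on recovered reads, a block for the replicate number and each library left out. Positions and lengths came from GENCODE release 44 (99.6% of identifiers matched) and promoters from RefSeq. Another marker list is not reported here. The members, lists and alternatives were chosen with earlier results of these data known. Named were the 10 members, CCND1, CCNE1, CCNE2, CDK2, CDKN2A, each list gene called without adjustment, the most positive and most negative E2F and p53 targets, and the 3 genes most like CDKN2D.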

Additional observations from a re-analysis of the deposited data

How the results depend on the processing

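Without adjustment, the 408 genes called by limma became 182 without DMSO replicate 1, 205 without DMSO replicate 3, 1485 without Tan I replicate 1, 161 without Tan I replicate 2 and 269 without Tan I replicate 3, and 1496 with PC1 as a covariate. With adjustment, 16 genes were called by DESeq2 and 194 with PC1 as a covariate, in place of 0; DESeq2 gave no adjusted p for 1965 genes. The members called without adjustment were 0 with eBayes without the trend and 3 with PC1 as a covariate, and 0 to 1 with a library left out. Each of these counts above 0 includes CDKN2D, from which nothing is read. None of the other members was called with adjustment with PC1 as a covariate. The E2F targets called were 1 with rescaled totals and 0 with eBayes without the trend, and 0 to 4 with a library left out. They were 3 with DESeq2 and 3 with quantile normalization, where MCM2 was called lower in Tan I at -0.29. The p53 targets called were 2 with rescaled totals and 4 with PC1 as a covariate, and 0 to 6 with a library left out. The other G1/S regulators called were 0 to 2 with a library left out. Among named genes near 0, the log2 fold change turned to -0.0389 for CCND1 and -0.0323 for CCNE2 with rescaled totals, to -0.0717 for CCND1 and 0.0495 for RB1 with PC1 as a covariate, and to 0.00277 and 0.00413 for RB1 with edgeR and DESeq2. With a library left out it ran from -0.38 to 0.0508 for CDKN1B, -0.28 to 0.33 for CDKN2C, -0.30 to 0.16 for CDK4, -0.0665 to 0.0913 for RB1, -0.0869 to 0.20 for CCND1 and -0.0837 to 0.23 for CCNE2. The difference in the log2 ratio of CDK6 to CDK4 ran from -0.44 to 0.19 with a library left out. The cause of these changes was not tested.

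The labels do not say whether libraries with the same replicate number were handled together. Deviations from the group means correlated by 0.75 for the replicates numbered 1, -0.09 for those numbered 2 and -0.45 for those numbered 3, and only number 1 correlated best with its own number. These correlations cannot decide whether the numbers are pairs, so the main fit used none. With the replicate block the genes called without adjustment were 348, the E2F targets 1 and the p53 targets 2, and the members 1. Each member had at least 336 reads in every library, and the intervals rest on 3 libraries a group.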
